A study of Homo sapiens with 6 samples.

Results

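The clustered histone genes are the genes in the HIST1, HIST2, HIST3 and HIST4 clusters that encode the H1, H2A, H2B, H3 and H4 proteins. They were taken from a table of 57150 genes as every gene whose symbol starts with HIST1H, HIST2H, HIST3H or HIST4H and does not end in PS and a number. This gave 76 genes, of which 6 are of class H1, 17 of H2A, 23 of H2B, 15 of H3 and 15 of H4. The RNA came from K562, a human leukemia cell line, harvested 72 h after transfection. One group was 3 pools of cells given siRNAs against both αCP1 and αCP2, the poly(C)-binding proteins that PCBP1 and PCBP2 encode, and the other was 3 pools given control siRNAs. The paper describes the control siRNAs CTRL-1 and CTRL-2 as directed at GLD-2, an mRNA it calls unrelated, and CTRL-3 as non-targeting. Any part of GLD-2 targeting in the control values was not tested. Each gene has 1 FPKM (fragments per kilobase of transcript, as scaled by the authors' software) and 1 estimated count per group. No spread between libraries could therefore be had, no test was run, and every difference below is a comparison of 2 pooled values. In the first group's column, labelled KD, the estimated counts sum to 13699340, and in the second group's column, labelled CTRL, to 11680567, a log2 ratio of 0.23.

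The groups are called by their column labels throughout, because the target genes did not both follow them. PCBP1 stood at an FPKM of 184 in KD and 188 in CTRL, a log2 ratio of -0.03, and PCBP2 at 531 and 342, a log2 ratio of 0.63, so PCBP2 was higher in the column labelled KD. The authors report depletion of αCP1 and αCP2 in both mRNA and protein, with a representative Western blot. That evidence is not part of the pooled RNA values used here. Of 15 erythroid and hematopoietic markers that K562 would be checked with, 8 were listed at 0 in both columns, among them GATA1, TAL1, KLF1 and HBZ, and 2 were over an FPKM of 5 in both, TFRC at 134 and 65.7 and GATA2 at 16.9 and 10.1. The part of these label checks in the values below was not tested.

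Histone proteins package DNA into nucleosomes: 2 copies each of H2A, H2B, H3 and H4 form the core and an H1 binds the linker DNA between cores. Most mRNA for them is made in S phase from the clustered genes, which lack introns. Such an mRNA usually does not end in a poly(A) tail. It is cut just past a short stem-loop that SLBP, the stem-loop binding protein, holds. Some of the same genes can also be read through to a poly(A) site further downstream. The libraries were made with a kit that selects poly(A) RNA, so the values below are for whatever histone RNA passed that selection, and not for all histone mRNA in the cells.

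The stem-loop was looked for in the reference genome (GRCh37) within 150 bases after the stop codon, on the gene's strand, as the pattern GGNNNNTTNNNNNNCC with 6 paired bases on each side of a loop of 4 bases and at most 1 mismatch in the stem. It was present in 64 of the 67 members annotated as protein coding (95.5%), against 76 of 19426 other protein-coding genes (0.391%), one of which is H2AX. None was found for HIST1H4L, HIST1H3E and HIST1H2BI in this window. The sequences shown here are examples. They come from genes that lead their class by counts, that differ widely between the columns or that carry a form described below. The capitals mark the stem-loop.
HIST1H1C (chr6:26055967-26055992, minus strand): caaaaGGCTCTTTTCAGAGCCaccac
HIST1H1A (chr6:26017260-26017285, minus strand): ccaacGGCTCTTTTAAGAGCCaccta
HIST1H2AC (chr6:26124892-26124917, plus strand): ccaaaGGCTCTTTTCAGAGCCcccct
HIST1H2AG (chr6:27101289-27101314, plus strand): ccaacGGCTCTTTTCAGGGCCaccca
HIST3H2A (chr1:228645065-228645090, minus strand): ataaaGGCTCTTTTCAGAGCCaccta
HIST1H2BK (chr6:27114140-27114165, minus strand): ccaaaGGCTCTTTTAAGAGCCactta
HIST1H2BJ (chr6:27100095-27100120, minus strand): ctaacGGCTCTTTTAAGAGCCaccca
HIST1H2BD (chr6:26158810-26158835, plus strand): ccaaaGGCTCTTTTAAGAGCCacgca
HIST1H3H (chr6:27778289-27778314, plus strand): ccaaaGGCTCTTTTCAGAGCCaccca
HIST1H4C (chr6:26104540-26104565, plus strand): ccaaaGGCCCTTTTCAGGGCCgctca
HIST1H4I (chr6:27107428-27107453, plus strand): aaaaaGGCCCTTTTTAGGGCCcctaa

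These stem-loops fall into a few forms that follow the histone class. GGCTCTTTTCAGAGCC was the form of 39 members, of classes H1, H2A, H2B and H3 and of no H4. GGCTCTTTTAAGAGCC was carried by 9 members, among them HIST1H2BK, HIST1H2BJ and HIST1H2BD, and these 9 together hold 5753 counts in KD and 3274 in CTRL, more than the 39 members of the first form (1873 and 875). Every H4 stem-loop found had one of the other two common forms, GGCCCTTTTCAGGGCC in 9 genes and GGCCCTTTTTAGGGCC in 4. HIST1H2AG, HIST2H2AC and HIST1H2AK each had a form of their own, and in HIST1H2AG and HIST1H2AK the stem holds 1 mismatch.

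Together the 76 genes hold little of the sequenced RNA, and few of them make up most of it. Their counts sum to 8434 in KD and 4889 in CTRL, 0.0616% and 0.0419% of all counts. Their summed FPKM was 1624 against 1032, or 1.57-fold higher in KD. The 95% interval of the log2 ratio of count shares runs from 0.51 to 0.61. It takes the estimated counts as counted fragments and covers counting error only (reads are not independent molecules, and the spread between libraries is not in it). Where such an interval is printed beside a log2 ratio of FPKM, it belongs to the share ratio and need not hold that value. HIST1H2BK alone held 44.1% of the counts in KD and 41.7% in CTRL, and the 10 leading genes held 93.1% and 90.5%. Of the 76 genes, 19 were listed at 0 in both columns and 15 more had 3 or fewer counts in both. A mean FPKM of at least 1 over both columns was reached by 39 genes, and the log2 ratios below, log2 of (FPKM + 1) in KD over (FPKM + 1) in CTRL, are given for these, a scale that understates the change of low genes. Just inside this limit were HIST1H2BF, with 9 counts in KD and 17 in CTRL, and HIST1H3B, with 5 and 3. Just outside it were HIST1H2AL, with 4 and 4, and HIST1H2AH, with 4 and 1.

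**Figure D1:**
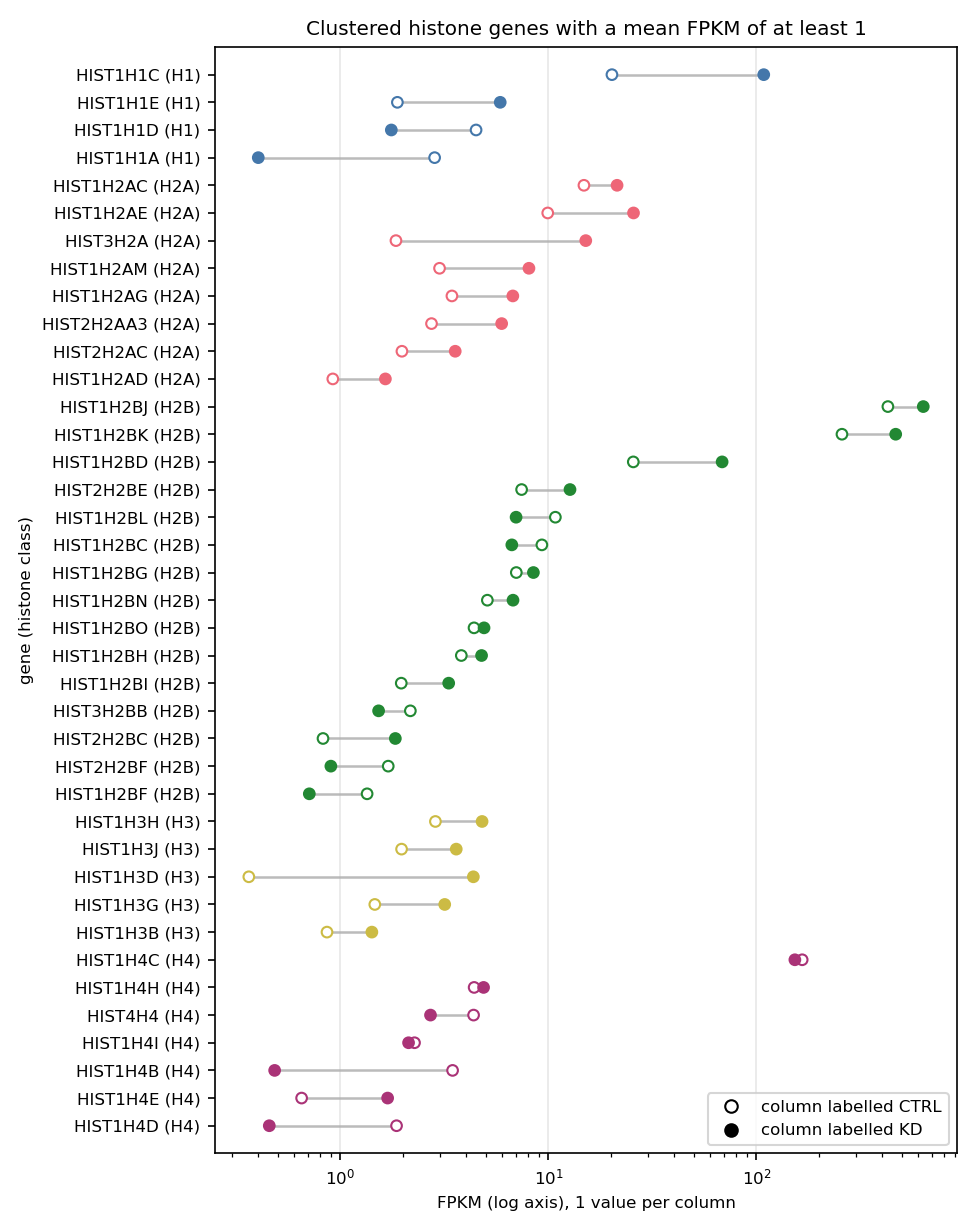
FPKM of the 39 clustered histone genes whose mean FPKM reached 1, on a log axis, 1 pooled value per column; filled points are the column labelled KD, open points the column labelled CTRL, and colors mark the histone class. HIST1H2BJ, HIST1H2BK and HIST1H4C have the highest FPKM in CTRL, and HIST1H1C lies at 108 in KD and 20.2 in CTRL.

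Among the 39, log2 ratios were above 0 for 27 genes and below 0 for 12, with a median of 0.50, beside a median of 0.01 and 51.1% above 0 over the 13741 genes of the table that pass the same limit. A log2 ratio of 1 or more was reached by 7 members (17.9%), where 8.51% of all genes reached it. A log2 ratio of -1 or less was reached by 2 members (5.13%), where 3.27% of all genes did. The 7 were HIST1H1C, HIST1H1E, HIST1H2AE, HIST3H2A, HIST1H2AM, HIST1H2BD and HIST1H3D, and the 2 were HIST1H1A and HIST1H4B. Since the limit is on the mean, 5 members passed it through KD alone, with an FPKM under 1 in CTRL (HIST1H2AD, HIST2H2BC, HIST1H3D, HIST1H3B and HIST1H4E), and 5 through CTRL alone (HIST1H1A, HIST1H2BF, HIST2H2BF, HIST1H4B and HIST1H4D). The direction of these 10 was set by how they passed, which takes in both members at -1 or less and HIST1H3D among the 7. A second scale used counts divided by the column total in place of FPKM, again with 1 added to each scaled count. On it the all-gene median moved to -0.18, and the 7 became 3 (HIST1H1C, HIST3H2A and HIST1H2BD). The all-gene calls turned from 72.2% higher (1169 higher, 450 lower) to 44.4% higher (641 and 803). On that scale the members' median was 0.18, which is 0.35 above that of all genes. The added 1 draws the ratios of genes with few counts towards 0, as for HIST3H2A, at 1.71 on that scale. As plain count shares, with nothing added, all 7 stayed at 1 or more, from 1.16 (HIST1H2AE) to 2.82 (HIST3H2A). The drop from 7 to 3 therefore does not come from the division by the column total alone. As plain count shares HIST1H4E also reached 1 (1.15), and the lower side grew as well. At -1 or less were HIST1H1A and HIST1H4B (both -3.04), HIST1H4D (-2.23), HIST1H1D (-1.57), HIST4H4 and HIST1H2BF (both -1.15). The share of all genes past 1 is not given on that scale.

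**Figure D2:**
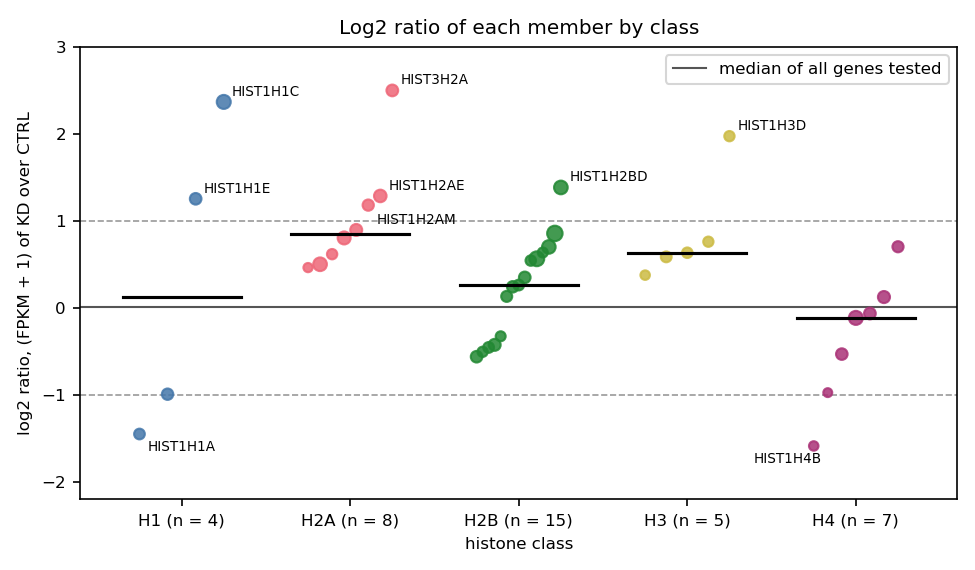
Log2 ratio of (FPKM + 1), KD over CTRL, for the same 39 genes by histone class; each point is 1 gene, larger points have more counts, black bars are class medians, the solid line is the median of all 13741 genes and the dashed lines are at 1 and -1. All 8 H2A and all 5 H3 points lie above 0, and the H1 genes are the most spread.

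Linker histone H1 genes went in opposite directions, with 1 gene carrying the class. HIST1H1C, now called H1-2 and one of the H1 subtypes of dividing somatic cells, had an FPKM of 108 in KD and 20.2 in CTRL, from 741 and 137 counts. Its log2 ratio was 2.37, and the interval of its count share ratio ran from 1.94 to 2.48. HIST1H1C ranked 1232nd of all genes by FPKM in KD and 4664th in CTRL. HIST1H1E, also a somatic subtype, stood at 5.86 and 1.88 FPKM with 44 and 14 counts, a log2 ratio of 1.25 (interval 0.53 to 2.40). HIST1H1D was lower in KD, at 1.76 against 4.49 FPKM and 13 against 33 counts (log2 ratio -0.99, interval -2.62 to -0.61). HIST1H1A was lower too, at 0.402 and 2.84 FPKM, and its 3 and 21 counts give a log2 ratio of count shares of -3.04 with an interval from -5.43 to -1.29.

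HIST1H1C held 92.3% of the H1 counts in KD (exact 95% interval 90.2% to 94.0%) and 65.2% in CTRL, while HIST1H1D held 1.62% and 15.7%. The summed FPKM of the class was 117 in KD and 30.1 in CTRL, or 3.88-fold higher, and without HIST1H1C the log2 ratio of the sum was -0.25. The other members, HIST1H1B with 1 and 5 counts and HIST1H1T, the testis subtype, with 1 and 0, were under the limit. The median over the 4 genes that passed it, 0.13, lies between the opposite pairs and turned to -0.02 with counts over the column total and to -0.20 after a trend in GC content and length was taken out.

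All 8 H2A genes that passed the limit were higher in KD, with a median log2 ratio of 0.85, the highest of the 5 classes, and the 8 were above 0 under every scaling tried, HIST1H2AD having passed through KD alone. H2A pairs with H2B to form the dimers that flank the H3 and H4 tetramer in the nucleosome core. HIST1H2AC, the leading gene by counts, differed least on the count scale. It had an FPKM of 21.4 in KD and 14.8 in CTRL (log2 ratio 0.50), but 315 and 265 counts, whose share ratio had a log2 of 0.02 (interval -0.22 to 0.26). HIST1H2AG had 175 and 89 counts at an FPKM of 6.74 and 3.43, a log2 ratio of 0.80 (interval 0.37 to 1.13).

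HIST1H2AE had the highest H2A FPKM in KD, at 25.6 against 9.92 in CTRL, with 115 and 44 counts and a log2 ratio of 1.29 (interval 0.64 to 1.69). HIST3H2A, in the small HIST3 cluster of chromosome 1, showed the largest log2 ratio of all 39 genes, 2.50, from an FPKM of 15.1 and 1.85. That ratio rests on 58 counts in KD and 7 in CTRL, and its interval runs from 1.69 to 4.20. HIST1H2AM stood at 8.06 and 2.99 FPKM (30 and 11 counts, log2 ratio 1.18) in a locus that it shares with HIST1H3J in the table, so reads there may be split between them.

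The smaller H2A genes were HIST2H2AA3 at 5.96 and 2.74 FPKM, HIST2H2AC at 3.56 and 1.97, and HIST1H2AD at 1.64 and 0.919. HIST2H2AA3 has the same coding sequence as HIST2H2AA4, which is listed at 0 in both columns, so its 59 and 27 counts cannot be assigned to 1 of the copies. HIST1H2AD shares its locus with HIST1H3D, and both carry fractional counts. The class held 781 counts in KD and 460 in CTRL, and 9 of its 17 genes were under the limit. Listed at 0 in both columns were HIST2H2AA4, HIST2H2AB and HIST1H2AA, a testis gene.

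H2B was the class with the most RNA: 15 of its 23 genes passed the limit, and its summed FPKM was 1231 in KD and 768 in CTRL, or 1.60-fold higher. Most of this came from 3 genes. HIST1H2BJ stood highest by FPKM, at 634 and 429, from 1556 and 1018 counts (log2 ratio 0.56, share ratio 0.38 with an interval of 0.27 to 0.50). HIST1H2BK had an FPKM of 467 and 258 and the most counts, 3716 and 2037 (log2 ratio 0.86, share ratio 0.64 with an interval of 0.56 to 0.72). The order of these genes therefore turns on the scale, since 1 unit of FPKM stands for 7.95 counts of HIST1H2BK but 2.45 counts of HIST1H2BJ in KD.

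HIST1H2BD differed most between the columns, at 68.4 and 25.6 FPKM with 426 and 144 counts, a log2 ratio of 1.38 (interval 1.06 to 1.62). Its locus in the table overlaps LARP1P1, a pseudogene, and that of HIST1H2BK overlaps HIST1H4I, which lies on the other strand. The library kit does not keep the strand, so reads from such neighbours cannot be told apart by it. HIST2H2BE, with 327 and 191 counts at 12.7 and 7.43 FPKM, had a log2 ratio of 0.70.

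Among the other H2B genes the direction was mixed and counts were low. Higher in KD by FPKM were HIST1H2BN (6.75 and 5.08), HIST1H2BG (8.47 and 7.01), HIST1H2BO (4.90 and 4.39), HIST1H2BH (4.77 and 3.81), HIST1H2BI (3.31 and 1.96) and HIST2H2BC (1.84 and 0.824), an annotated pseudogene. Lower in KD were HIST1H2BL (6.99 and 10.8), HIST1H2BC (6.67 and 9.30), HIST3H2BB (1.53 and 2.17), HIST2H2BF (0.899 and 1.70) and HIST1H2BF (0.708 and 1.34). Of these 11 genes only HIST1H2BL, with 23 and 35 counts, had an interval that did not hold 0 (-1.66 to -0.04). That interval does hold the all-gene median of -0.18 on the count scale. The class median was 0.26, with 10 genes above 0 and 5 below, and 9 and 6 with counts over the column total. HIST1H2BA, the testis H2B, was 1 of 5 listed at 0 in both columns.

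H3 genes were near the limit of detection. The H3 class, which forms the core tetramer with H4, held 64.8 counts in KD and 33.7 in CTRL over 15 genes, and 5 passed the limit, all with log2 ratios above 0 (median 0.63, and 0.29 with counts over the column total). The 1 added on that second scale weighs heavily on genes with so few counts. As plain count shares the log2 ratios of the 5 ran from 0.51 (HIST1H3B) to 1.99 (HIST1H3D). HIST1H3D and HIST1H3B passed through KD alone and had to be above 0. HIST1H3H had 4.80 and 2.86 FPKM from 17 and 10 counts (log2 ratio 0.59, interval -0.67 to 1.82). HIST1H3J had 3.60 and 1.97 FPKM from 13 and 7 counts (log2 ratio 0.63, interval -0.77 to 2.23). HIST1H3D had 4.35 and 0.362 FPKM, a log2 ratio of 1.97, from 13.8 and 2.72 estimated counts, and the interval of its share ratio ran from 0.15 to 4.43. It was the only H3 gene whose interval did not hold 0, and its fractional counts come from the locus it shares with HIST1H2AD. The remaining pair were HIST1H3G at 3.17 and 1.46 and HIST1H3B at 1.42 and 0.861. The annotated coding sequences of the H3 genes differ while their proteins hardly do: 13 distinct coding sequences give 3 distinct predicted proteins. HIST2H3A and HIST2H3C, an identical pair, were both listed at 0.

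H4 was the class that was not higher in KD. HIST1H4C held 76.6% of the H4 counts in KD (interval 72.9% to 80.1%) and 77.4% in CTRL, so its share of the class was close in both. It had an FPKM of 153 and 166 from 430 and 458 counts, a log2 ratio of -0.12. Its share ratio was -0.32 with an interval from -0.51 to -0.13, which holds the all-gene median of -0.18 on the count scale. HIST1H4H stood at 4.88 and 4.39 FPKM with 52 and 41 counts (log2 ratio 0.12, interval -0.51 to 0.74). HIST1H4I stood at 2.13 and 2.27 FPKM with 31 and 33 counts (log2 ratio -0.07, interval -1.08 to 0.43).

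Below them HIST4H4, the one gene of its cluster, had 2.71 and 4.36 FPKM from 19 and 36 counts (interval -2.04 to -0.31), and HIST1H4E had 1.69 and 0.650 FPKM from 26 and 10 (interval 0.05 to 2.37). HIST1H4B, at 0.482 and 3.46 FPKM, had the lowest log2 ratio of all members, -1.59, but its 1 and 7 counts give a share ratio with an interval from -8.53 to -0.08. HIST1H4D, at 0.455 and 1.86 FPKM with 1 and 4 counts, had an interval from -7.85 to 1.11. The class sum was 166 against 184 FPKM, 0.902-fold, the class median was -0.12, and the median was below 0 under every scaling tried (-0.51 at the lowest). HIST1H4B and HIST1H4D passed the limit through CTRL alone and had to be below 0. HIST1H4E passed through KD alone and had to be above 0. The median rests in part on these genes. Over the H4 genes with an annotation, 12 distinct coding sequences give 2 distinct predicted proteins, and HIST1H4J with HIST1H4K and HIST2H4A with HIST2H4B are identical pairs, of which HIST2H4A had 1 count in CTRL and the others none.

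**Figure D3:**
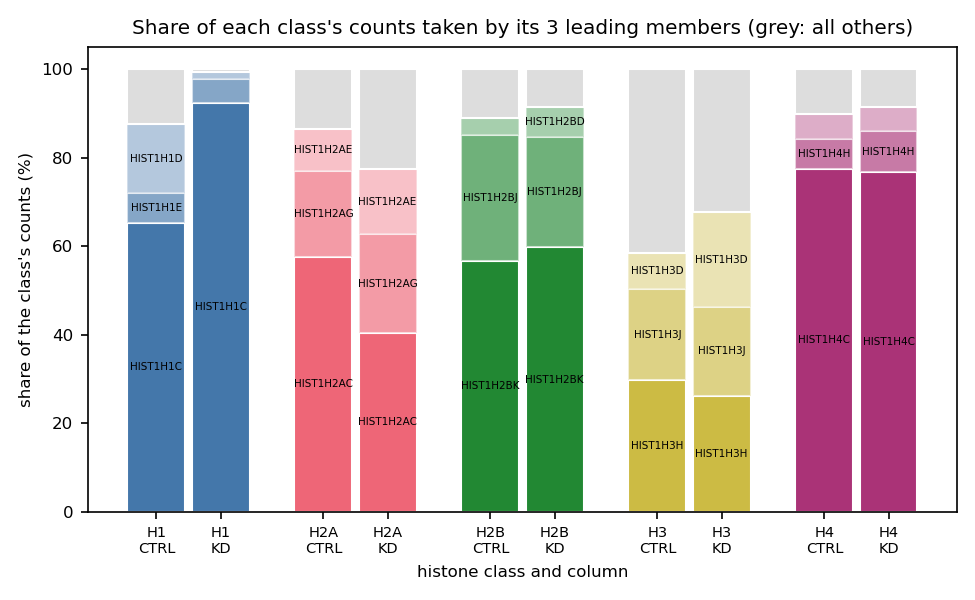
Share of each class's estimated counts, in percent, taken by its 3 leading genes (colored, darkest for the gene with the most counts) and by all other members (grey), in each column. HIST1H1C holds 65.2% of H1 in CTRL and 92.3% in KD, HIST1H2AC holds 57.6% and 40.3% of H2A, and HIST1H4C holds 77.4% and 76.6% of H4.

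Summed by class, then, H1 was 3.88-fold higher in KD by FPKM, H2A 2.24-fold, H3 2.02-fold and H2B 1.60-fold, while H4 was 0.902-fold. On the count scale the intervals of the log2 share ratio were 1.48 to 1.93 for H1, 0.37 to 0.70 for H2A, 0.50 to 0.62 for H2B, 0.09 to 1.35 for H3 and -0.48 to -0.14 for H4. The H1 interval lay above all others and the H4 interval below all others, while those of H2A, H2B and H3 overlapped. The all-gene median with counts over the column total was -0.18, and the H4 interval holds it. On that scale the H4 sum was thus near the level of all genes. In bulk RNA, a different number of cells in S phase and a different amount of histone RNA per cell cannot be told apart, whether a class was higher or lower.

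Where a gene's locus in the table ended was looked at beside its counts, since only RNA that runs past the stem-loop can end in a poly(A) site downstream. For 20 members the table's locus ran over 100 bases past the stem-loop, and these held 80.8% of the members' counts in KD and 81.6% in CTRL, with a median of 33.0 and 30 counts per gene. For the 44 others the locus ended within 100 bases of it, and these held 18.5% and 17.3%, with a median of 2 counts in both columns. Counts were not scaled for length here, and a longer transcript can collect more of them. The contrast is therefore not a measure of read-through, which was not tested. HIST1H2BK (8073 bases past), HIST1H2BJ (6043) and HIST1H2BD (12747) were in the first set. HIST1H1C (5 bases past) and HIST3H2A (6) were in the second, and the HIST1H4C locus ended 42 bases before the end of its stem-loop. Median log2 ratios over the genes that passed the limit were 0.53 and 0.38. Some long loci take in a neighbouring gene, and without any such locus the sets were 10 genes with 30.9% and 35.8% of the counts and 41 genes with 18.2% and 17.1%. HIST1H2BK is among those left out.

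H2A and H2B genes often lie head to head, and the partners did not share one level or direction. Of 14 pairs of members that start within 1000 bases of each other on opposite strands, 12 join an H2A with an H2B, and in 6 pairs both genes passed the limit. In 4 of these 6 the partners had log2 ratios of the same sign, and in 3 of the 5 that join an H2A with an H2B. The other one is HIST1H3J with HIST1H2BO, which is also the partner of HIST1H2AM. With 27 of the 39 members above 0, like signs say little about the pairs. HIST3H2A, with 58 and 7 counts, starts 230 bases from HIST3H2BB, with 5 and 7. HIST1H2AC, with 315 and 265 counts, starts 219 bases from HIST1H2BC, with 38 and 49. HIST1H2BJ (1556 and 1018) and HIST1H2AG (175 and 89), 248 bases apart, were both higher in KD. HIST1H2BK, with 3716 and 2037 counts, starts 251 bases from HIST1H2AH, with 4 and 1.

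By cluster, HIST1 on chromosome 6 (chr6:25726290-27861669) held 55 of the members, 31 of those that passed the limit, and 7937 and 4600 counts. HIST2, in 2 blocks of chromosome 1, held 16 members with 413 and 239 counts, a summed FPKM 1.71-fold higher in KD. HIST3, also on chromosome 1, held 4 members with 65 and 14 counts, and its sum was 4.28-fold higher, nearly all of it from HIST3H2A. HIST4 is HIST4H4 alone, on chromosome 12.

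Promoters were read for the 60 members found in a RefSeq table of the GRCh38.p14 assembly, as the 250 bases before the start. TATAAA on the gene's strand was present in 36 of 60 (60.0%), against 6.80% of 35116 promoters. CCAAT on either strand was present in 50 of 60 (83.3%), against 32.0% of all. CCAAT was held by every H1, H2A, H2B and H3 promoter read (6, 16, 13 and 12), but by 3 of 13 H4 promoters (23.1%). A match of these letters is a description of the window and not a binding site.

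GC content moved with the log2 ratio over all genes and was high in the members. Across the 13429 genes with a value, Spearman's rho between the GC content of the exons and the log2 ratio was 0.45. These points are genes of the same 2 pooled columns and not replicates. The members that passed the limit had a median GC content of 55.4% against 47.9% over all genes, and a median length of 580 bases against 4800. When all genes were put in 4 groups of like size by GC content, the median log2 ratio in the highest group was 0.48 over all genes and 0.64 over the 18 members in it, and in the next group it was 0.09 and 0.41 (12 members). In the group below that the members lay under all genes, at -0.33 (5 members) against -0.12, and in the lowest group they stood at 0.43 (2 members) against -0.24. With a quadratic trend in GC content and length removed across all genes, the members' median was 0.23, with 25 genes above 0 and 12 below, and the calls over all genes turned from 72.2% higher to 58.4% higher (690 and 492). HIST1H1C stood at 2.06, HIST3H2A at 2.35 and HIST1H2BD at 1.42 after this step, while HIST1H2BK came to 0.48 and HIST1H1E to 0.75.

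**Figure D4:**
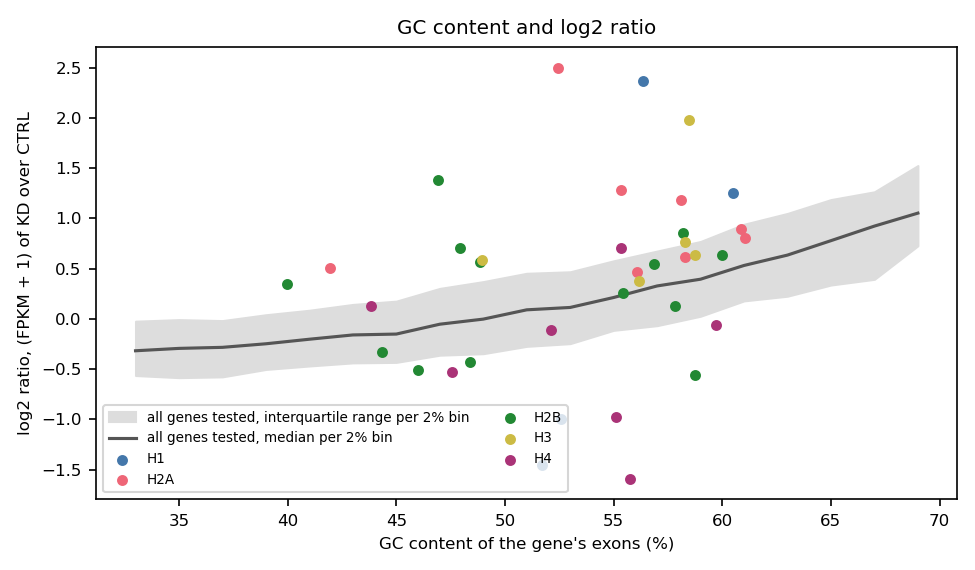
Log2 ratio of (FPKM + 1), KD over CTRL, against the GC content of the gene's exons in percent; the line is the median of all genes with a value in bins of GC content, the grey band their interquartile range, and points are the 37 members with a value, colored by class. The all-gene median climbs with GC content. HIST1H1C, HIST3H2A, HIST1H3D and HIST1H2BD are among the members above the band, and HIST1H1A and HIST1H4B are among those below it.

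Variant histones, whose genes lie outside the clusters and whose mRNAs usually end in a poly(A) tail, did not move as one group. Of a list of 20, 11 passed the limit, 6 above 0 and 5 below (median 0.10), with 3 at a log2 ratio of 1 or more and none at -1 or less. The 3 were H2AFJ (62.8 and 18.4 FPKM, 1.72), H1FX (148 and 54.0, 1.43) and H2AFX (76.4 and 29.7, 1.33), the H2A variant marked at DNA breaks. With the GC trend removed H2AFJ stood at 1.83 but H1FX at 0.43 and H2AFX at 0.45. H2AFZ, the H2A variant of promoters, stood at 248 and 396 (log2 ratio -0.68), H3F3B at 183 and 333 (-0.86), H3F3A at 36.7 and 37.7 (-0.04), and H1F0, an H1 of resting cells, at 34.6 and 46.8 (-0.42).

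The genes that make and remove histone mRNA had list medians below 0 by FPKM. Of 30 genes of histone mRNA 3′ end formation and decay, 12 were above 0 and 18 below (median -0.14), with MIF4GD, a partner of SLBP (28.5 and 12.6 FPKM, 1.12), and CPSF1, a cleavage factor subunit (44.3 and 21.1, 1.04), the 2 at 1 or more. SLBP itself stood at 53.4 and 69.4 FPKM, a log2 ratio of -0.37. NPAT, which activates histone gene transcription, stood at 7.37 and 11.4 (-0.57). LSM10 (58.1 and 44.6, 0.38) and LSM11 (2.42 and 3.48, -0.39) belong to the U7 particle that cuts the mRNA, and ERI1 (23.6 and 37.4, -0.64) trims its end. Of 21 histone chaperones 7 were above 0 and 14 below (median -0.08), and ASF1A, an H3 and H4 chaperone (4.87 and 14.6, -1.41), was the one past 1 in size. Of 17 S phase genes 5 were above 0 and 12 below (median -0.31), and CDT1, a replication licensing factor (44.8 and 21.2, 1.05), was the one at 1 or more. With counts over the column total, where the all-gene median was -0.18 and that of the clustered histone genes 0.18, the list medians were -0.26 for variant histones, which changed sign, -0.25 for 3′ end formation and decay, -0.32 for chaperones and -0.52 for S phase genes. With the trend in GC and length removed they were 0.13, 0.04 (a change of sign), -0.30 and -0.38.

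**Figure D5:**
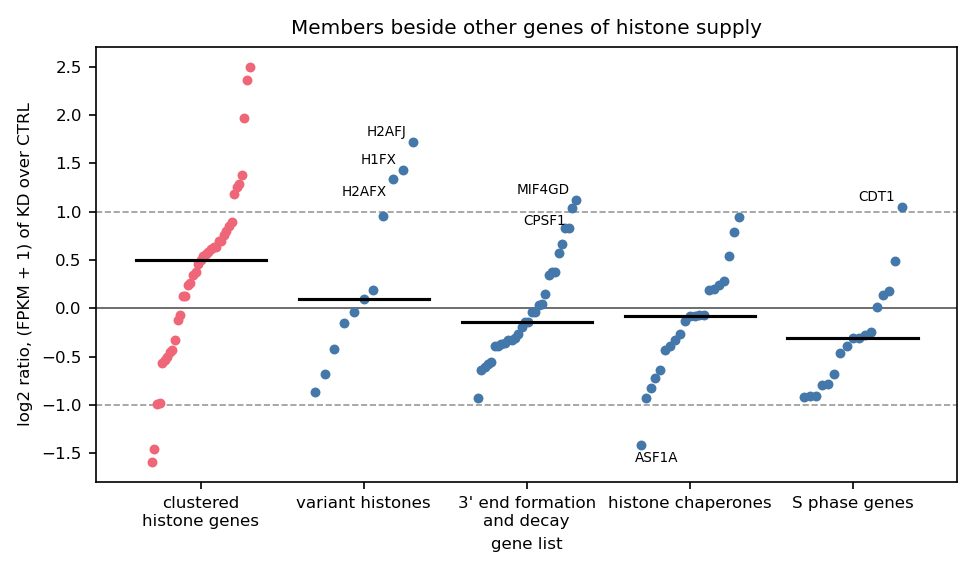
Log2 ratio of (FPKM + 1), KD over CTRL, for the 39 clustered histone genes (red) and for 4 lists of related genes (blue) whose mean FPKM reached 1; each point is 1 gene, black bars are list medians and dashed lines are at 1 and -1. The median is 0.50 for the clustered histone genes and between -0.31 and 0.10 for the lists; with counts over the column total it is 0.18 and between -0.52 and -0.25.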

How the data were processed

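The deposited table gives, per gene and group, 1 FPKM and 1 estimated count. According to the labels and the study's methods, the authors mapped paired reads from TruSeq libraries to hg19 and Ensembl transcripts with TopHat 1.4.1 and calculated the FPKM values with Cuffdiff 2.2.0. In what way the 3 libraries were pooled is not given in the sources used here. By the authors' mapping figures, each single library has more mapped read pairs than the estimated counts of either column sum to. The estimated counts are therefore not shown to be the pooled fragments. Some libraries came from earlier work, which pooled columns cannot separate. The authors' own fold changes, p-values and FDR are also in the table and were not used.

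Log2 ratios used FPKM with a pseudocount of 1 and a mean FPKM limit of 1. Intervals (95%) are exact binomial (Clopper-Pearson) intervals of the ratio of count shares, or of a class share. They treat the estimated counts as counted fragments, so they are a rough guide to counting error and cover no other error. No test was run. The interval step and the trend removal were checked on simulated data. Members were matched to GENCODE 44 on GRCh37 (72 of 76, 41 by identifier and 31 by a RefSeq synonym inside the table's locus). HIST1H2BG, HIST1H2BF, HIST2H2BB and HIST1H4F were not matched. Sequences were read from GRCh37, which is the build of the table. All members with a mean FPKM of at least 1 are named, with counts for the 3 leading genes of each class and for others whose counts a result turns on. Of the other lists, genes past 1 in size and a set of regulators and variants are named. The members and lists were chosen with earlier results of these data known. Alternatives were a pseudocount of 0.1, counts over the column total, centring, trend removal, other limits on FPKM and leaving out members. For single genes and medians, counts over the column total also had a pseudocount of 1, added to the scaled counts. The intervals and plain count shares had none. Python 3.11.15, pandas 2.3.3, SciPy 1.17.1 and pysam 0.24.0 were used.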

Additional observations from a re-analysis of the deposited data

How the results depend on the processing

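Of 154 alternative values of single members, 147 moved by less than the distance from the middle of their counting interval to its end. The other 7 moved by more, and 0 of the values past 1 in size changed sign. Of 91 alternative summary values, 23 were labelled as moved. Medians and numbers of members have no counting interval, so for them the label says nothing about counting error. The sign changed for 6 log2 ratios: the H1 sum below, the H1 median of 0.13 (-0.02 with counts over the total, -0.20 with the trend removed, -0.18 with no filter), the variant histone median of 0.10 (-0.26 with counts over the total) and the 3′ end list median of -0.14 (0.04 with the trend removed). At a mean FPKM of at least 5 the H1 median was 2.37, that of HIST1H1C alone. The log2 ratio of summed FPKM was 1.96 for H1, 1.17 for H2A, 0.68 for H2B, -0.15 for H4 and 0.65 over all members. As count shares it was 1.71 for H1, 0.53 for H2A, 0.56 for H2B and 0.56 over all. Without the member with the most counts it turned to -0.25 for H1 and was 1.43 for H2A, 0.58 for H2B, -0.50 for H4 and 0.58 over all. Without members of identical coding sequence or overlapping locus it was 0.52 for H2B and 0.53 over all. With counts over the column total the H3 median was 0.29. The 7 members at 1 or more became 11 with a pseudocount of 0.1 and 3 with counts over the total. The 2 at -1 or less became 4 with a pseudocount of 0.1, 1 with counts over the total, 4 with the trend removed and 0 with a mean FPKM of at least 5. With FPKM in place of counts HIST1H2AC held 23.3% of H2A in KD and 36.2% in CTRL, HIST1H2BK 38.0% and 33.6% of H2B, and HIST1H4C 92.3% and 90.2% of H4. The causes were not tested. No paired analysis was possible because each group has a single pooled column, and for the same reason no library could be left out. The H3 genes and every gene with 3 or fewer counts have wide counting intervals, or no ratio.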
